A study of Pseudotsuga menziesii with 10 samples.

Results

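In the female gametophyte of Douglas-fir (Pseudotsuga menziesii) seeds, 47 of 54889 assembled transcripts (contigs) were at 10 FPKM or more on 10 June and had been shut down by 22 June, whether or not the cones had received pollen. FPKM is the fragment count of a contig divided by its length and by the size of the library. A contig was chosen if, in pollinated and in unpollinated megagametophytes alike, it stood at 10 FPKM or more on 10 June, under 10 FPKM on 22 June, and at least 3 log2 units lower (8-fold, on the log2(FPKM + 1) scale of the deposited table) on each of 22 June, 30 June and 6 July than on 10 June. The members were thus chosen by their levels in all 8 megagametophyte libraries, which are given below as a description. The limma test of pollination below covers the whole table and is not read for the members. The 2 cone libraries took no part in the choice.

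The megagametophyte is the haploid tissue of a conifer ovule that bears the egg cells and later feeds the embryo. Before fertilization its cells break down in the centre to form the corrosion cavity, into which the embryo will grow. It then fills with storage proteins and lipids and surrounds the embryo as the nutritive tissue of the seed.

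The pollinated groups came from isolated cones dusted with a pollen mix, and the unpollinated groups from cones kept in their bags without pollen. Both were sampled on 10, 22 and 30 June and 6 July 2011, dates that the labels match with corrosion cavity formation, fertilization, embryo growth and, without pollen, the beginning of abortion. Cone scales and cone bracts, sporophyte tissue of the same trees, were taken on 26 May. All 10 libraries came from ramets of a single clone, genotype 970, and each megagametophyte library from a pool of 200 to 400 megagametophytes. The labels of the pollinated libraries name embryo together with megagametophyte. Every group had 1 library, so differences between single libraries have no replicate check. The contigs carry accession numbers and no gene names, so functions are not described and the tissue labels could not be checked against marker genes.

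Contigs at 10 FPKM or more were nearly equal in number across the libraries, at 8468 to 8815, while contigs at 1 FPKM or more ranged from 22662 to 39644. The read depth of the libraries is unknown, because the table holds rounded log values, and no counting intervals can be given. No value is exactly 0, and the lowest value of any of the 47 contigs was 0.0140 FPKM.

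On 10 June the 47 contigs were moderately abundant. Their level ran from 10.6 to 164.4 FPKM in the pollinated pool, with a median of 20.9, and from 10.3 to 180.0 FPKM in the unpollinated pool of that date, with a median of 29.1. Only 3 contigs in the pollinated and 2 in the unpollinated library reached 100 FPKM. Together they made up 0.307% of all FPKM in the pollinated and 0.304% in the unpollinated library of 10 June. The median of their mean log2 level was 4.60, against 4.79 for 7843 other contigs that reached 10 FPKM in both 10 June libraries.

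On 22 June the median of the 47 contigs was 0.625 FPKM in the pollinated pool and 0.0644 FPKM in the unpollinated pool. On 30 June it was 0.0425 FPKM in both pools. On 6 July it was 0.0497 FPKM in the pollinated pool and 0.0425 FPKM in the unpollinated pool. The median change of a contig, 22 June minus 10 June, was -3.61 log2 units with pollen and -4.30 log2 units without. The widest change was -7.32 log2 units with pollen and -6.75 log2 units without. In pools of whole tissue, fewer cells of a kind and less RNA per cell cannot be told apart.

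The rule was met by 0.0856% of all contigs and by 0.596% of the 7890 contigs that reached 10 FPKM in both 10 June libraries. These shares are set by the rule itself. Among the 7890, 1031 stood below 10 FPKM in each 22 June library, 65 of these had fallen by 3 log2 units or more in both states by then, and 47 were still that far down on both later dates. Many members lay close to the limits. The smallest of a member's 6 falls was under 3.5 log2 units in 27 of 47 contigs and 4 or more in 5. The member nearest to each limit stood at 3.5 log2 units on 10 June, at 3.07 on 22 June and at a smallest fall of 3.01, and the nearest contigs outside stood at 3.45, 3.5 and 2.99.

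**Figure D1:**
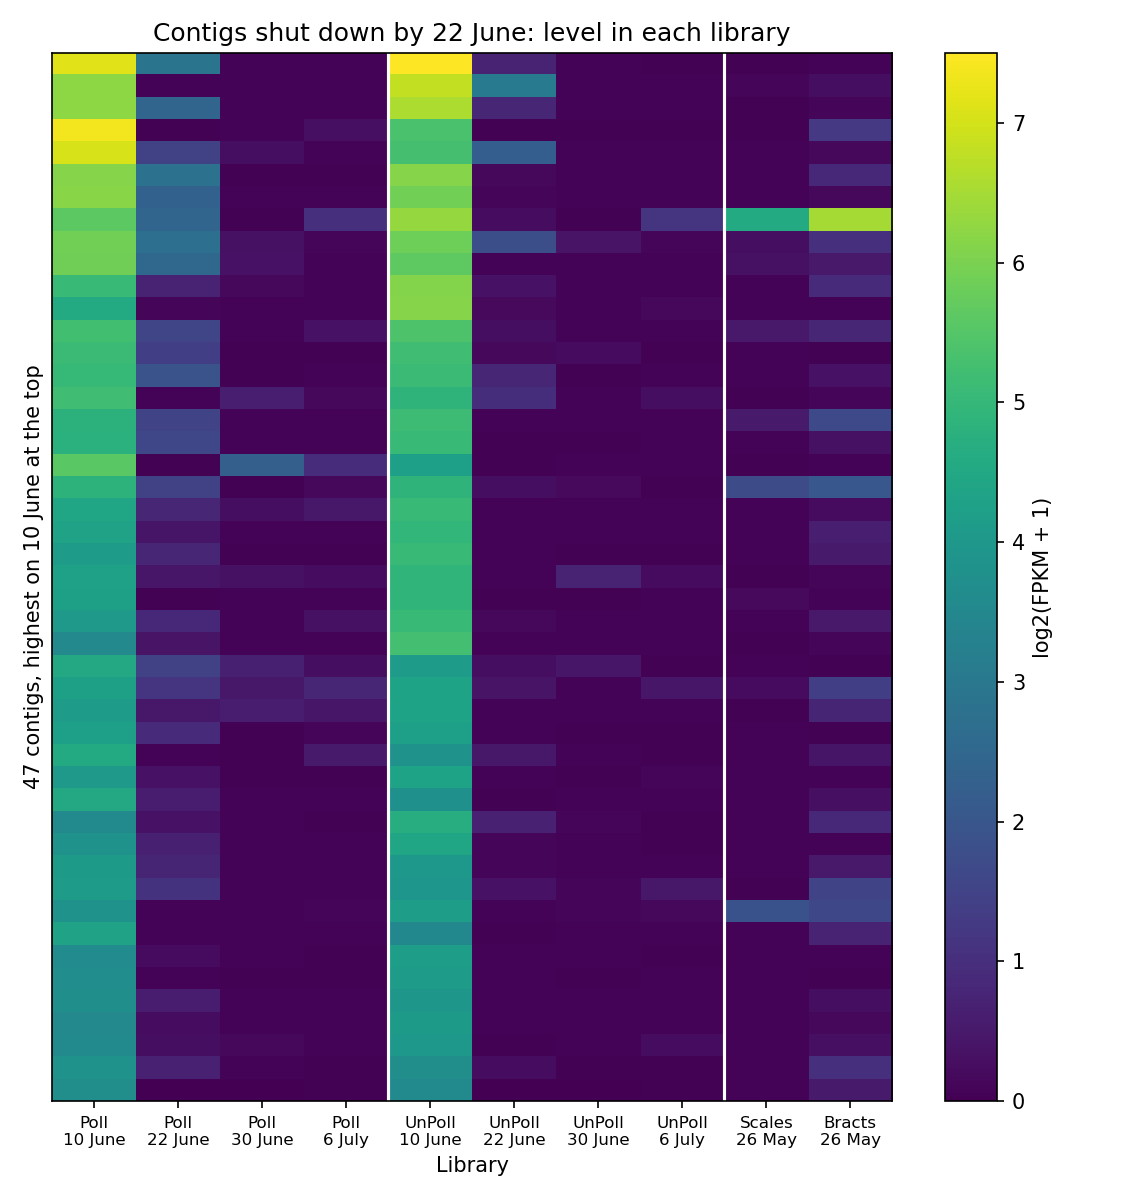
Level of each of the 47 contigs (rows, ordered by mean level on 10 June) in each of the 10 libraries (columns, 1 library each), as log2(FPKM + 1). The 10 June columns are bright in every row, 17 rows of the pollinated and 3 of the unpollinated 22 June column are at 1 FPKM or more, and 1 row is bright in scales and bracts.

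GAZW02064159 was the most abundant contig of the group. It stood at 142.0, 6.46, 0.0425 and 0.0425 FPKM in the pollinated pools on 10, 22 and 30 June and 6 July, at 180.0, 0.682, 0.0425 and 0.0353 FPKM in the unpollinated pools, and at 0.0353 FPKM in cone scales and 0.0425 FPKM in cone bracts. Only its 10 June libraries were high, and on 22 June a residue was left mainly in the pollinated library.

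GAZW02015576, the next in level, left its residue in the other state. It stood at 74.1, 0.0425, 0.0425 and 0.0425 FPKM on the 4 dates in the pollinated pools, at 112.0, 7.40, 0.0425 and 0.0497 FPKM in the unpollinated pools, and at 0.0792 FPKM in cone scales and 0.214 FPKM in cone bracts. Its 22 June value in unpollinated megagametophytes was the highest 22 June value of any member in either library.

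GAZW02025561 had the widest fall, with a mean of -6.31 log2 units between 10 and 22 June over the 2 states. Its levels were 164.4, 0.0353, 0.0425 and 0.248 FPKM on the 4 dates in the pollinated pools and 39.5, 0.0353, 0.0353 and 0.0353 FPKM in the unpollinated pools, with 0.0353 FPKM in cone scales and 1.36 FPKM in cone bracts. No residue was left on 22 June in either state.

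The residue on 22 June differed between the contigs and, for some of them, between the pollination states. In pollinated megagametophytes 17 of the 47 contigs (36.2%) were still at 1 FPKM or more, where 41.3% of all contigs were. In unpollinated ones 3 (6.38%) were, where 41.8% of all contigs were. The rule caps the members' values on this date. By contig, 29 fell short of 1 FPKM in both libraries, 15 were under it in the unpollinated library alone, 1 in the pollinated library alone, and 2 were at 1 FPKM or more in both. The 47 contigs summed to 63.9 FPKM in the pollinated pool and 21.4 FPKM in the unpollinated pool on that date.

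By any amount, the pollinated library of 22 June was the higher one for 35 of the 47 contigs and the unpollinated library for 6, with 6 equal. Over all 54889 contigs the shares higher in the pollinated and in the unpollinated library were 40.8% and 42.4%. Under 0.1 FPKM stood 11 members in the pollinated and 26 in the unpollinated library, as did 35.0% of all contigs in each. Some of these directions thus rest on values near the floor. The pollinated library was the higher one for 74.5% of the members, 92.4% of 589 later-falling contigs, which were still abundant on 22 June and had dropped by 6 July, and 61.6% of the 7843 other contigs of 10 June, so the direction was not particular to the members. A further call asked for 2-fold or more (1 log2 unit on the log2(FPKM + 1) scale) and at least 1 FPKM in the higher library. By it 13 members (27.7%) were higher in the pollinated library. The same held for 3.49% of all contigs, 20.4% of the later-falling contigs and 7.59% of the 7843 other contigs of 10 June. In the unpollinated library 1 member (2.13%) was higher, against 2.61%, 0.509% and 0.740% of these groups. At a minimum of 10 FPKM no member can differ on this date, since the rule keeps them all below it. The median difference over the members, pollinated minus unpollinated, was 0.49 log2 units, and it ran from -3.01 to 2.67.

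**Figure D2:**
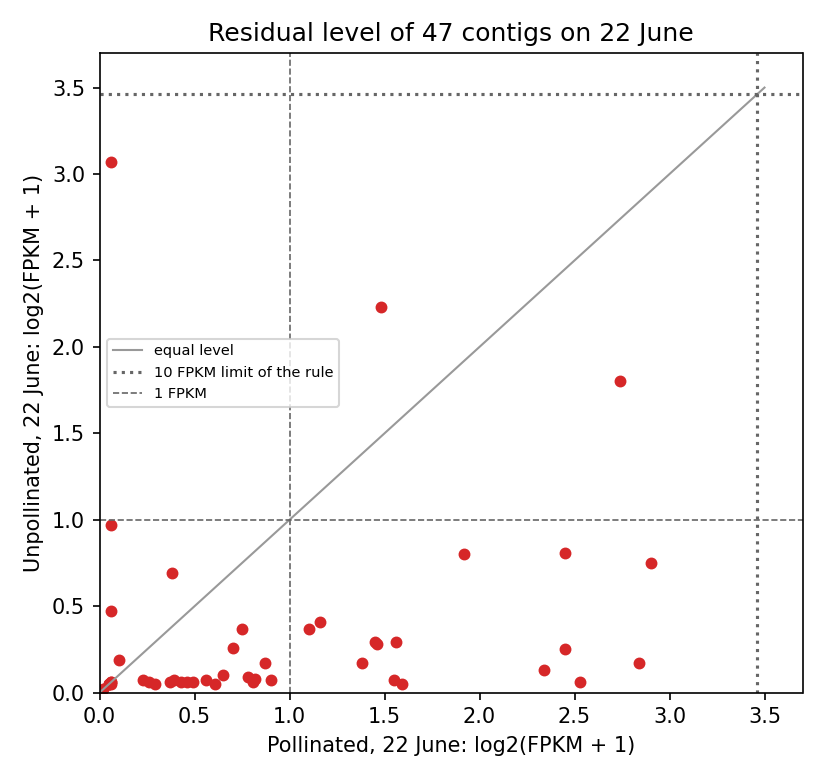
Level of the 47 contigs on 22 June in pollinated (horizontal axis) against unpollinated (vertical axis) megagametophytes, both as log2(FPKM + 1), 1 point per contig and 1 library per axis. The points lie mostly under the line of equal level, with 17 contigs right of the 1 FPKM line and 3 above it.

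On 10 June the direction was the other way. The pollinated library was higher for 15 contigs and the unpollinated library for 30, with a median difference of -0.25 log2 units; over all contigs the shares were 35.6% higher in the pollinated and 54.9% higher in the unpollinated library. At 2-fold or more and 10 FPKM, 3 members (6.38%) were higher in the pollinated library and 5 (10.6%) in the unpollinated library. The shares were 0.701% and 0.47% of all contigs, and 0.995% and 0.727% of the 7843 other contigs of 10 June. The rule puts every member at 10 FPKM or more on this date, unlike all contigs. On 30 June and 6 July the median difference was 0, and on 30 June 1 member exceeded its unpollinated level 2-fold or more in the pollinated library and had at least 1 FPKM there, where 4.38% of all contigs did.

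Over all 4 dates the pollination states were compared with limma, fitted to the whole table with a block for date. At a limma adjusted p under 0.05, 1 of 27065 contigs (0.00369%) passed, and at an unadjusted p under 0.05 4.81% did. Nothing is read from this test about the 47 contigs, because the rule had used the same 8 libraries and they passed its filter on low values through their level on 10 June.

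GAZW02050706 had the largest rise between 22 June and 6 July among the members, as a mean of both states. It stood at 47.2, 0.0353, 3.79 and 0.919 FPKM on the 4 dates in the pollinated pools and at 17.8, 0.0353, 0.0425 and 0.0425 FPKM in the unpollinated pools, with 0.0353 FPKM in cone scales and 0.0497 FPKM in cone bracts. The pollinated library was higher on 3 of 4 dates and equal on 22 June.

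After 22 June the 2 states differed in how much was left to lose. In pollinated megagametophytes 15 of the 47 contigs (31.9%) fell 2-fold or more between 22 and 30 June, against 6.80% of all contigs. In unpollinated ones 3 (6.38%) did, which is close to the 5.61% of all contigs. Of the later-falling contigs, 98.5% fell that far with pollen and 93.2% without, so such a fall is not particular to the members. On the log2(FPKM + 1) scale, a share of each contig's fall from 10 June to its lowest later value had been made by 22 June. Its median was 86.2% in pollinated and 99.0% in unpollinated megagametophytes. These shares depend on the log scale. In FPKM the median of the members had gone by 22 June from 20.9 to 0.625 with pollen and from 29.1 to 0.0644 without. From 30 June to 6 July the median change was 0 log2 units in both.

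Almost no level returned after 22 June. By 6 July no member was at 1 FPKM or more and 1 log2 unit or more above its 22 June level in either state, where 16.1% of all contigs were and 0 of the 589 later-falling contigs. On the last 2 dates, 45 members did not reach 1 FPKM in any of the 4 libraries, and the highest value was 3.79 FPKM, for GAZW02050706 in the pollinated library of 30 June, where this contig stood above its 22 June level. The other exception was GAZW02062123, at 1.07 FPKM in the pollinated pool and 1.2 FPKM in the unpollinated pool on 6 July. The rule caps these values through the 3 log2 units it asks for.

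**Figure D3:**
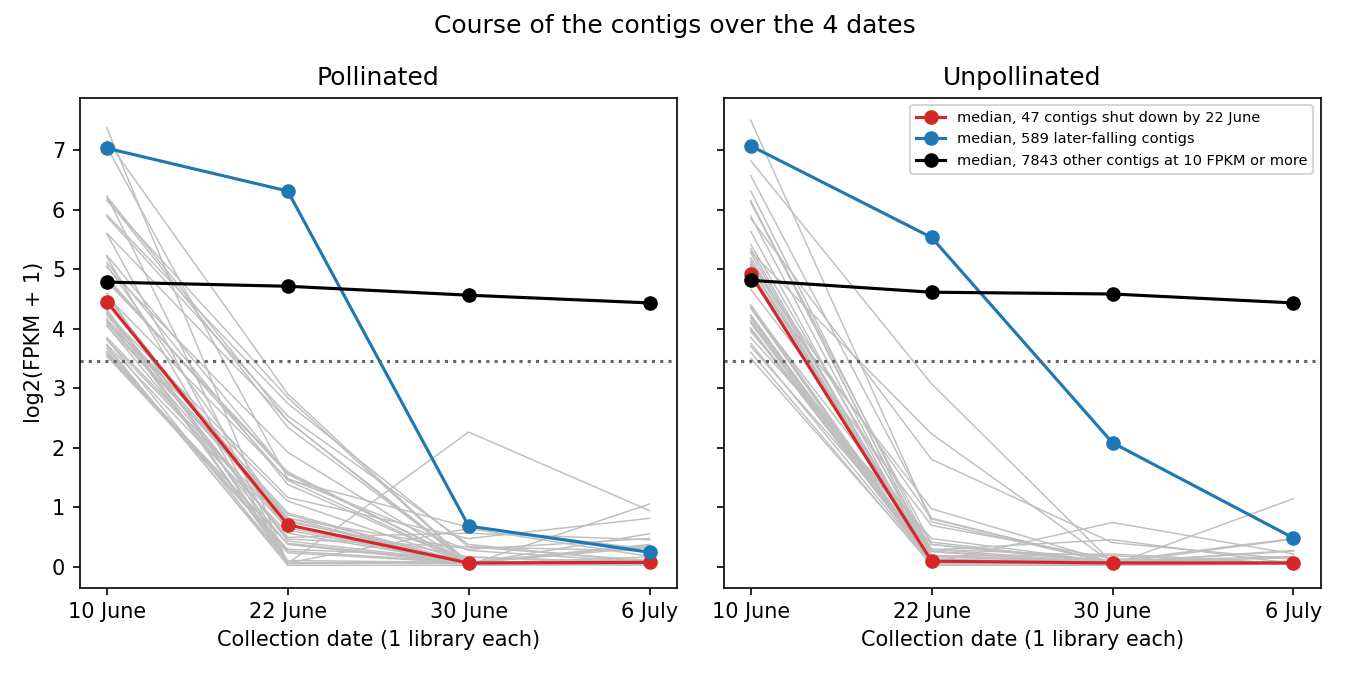
Course of the 47 contigs (grey lines) over the 4 dates in pollinated (left) and unpollinated (right) megagametophytes, as log2(FPKM + 1), with the median of the 47 contigs in red, of 589 later-falling contigs in blue and of 7843 other contigs at 10 FPKM or more on 10 June in black; the dotted line is the 10 FPKM limit. The red median is at its floor by 22 June in unpollinated and by 30 June in pollinated megagametophytes, while the blue median drops later.

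The 47 contigs were set beside 589 contigs that fell later, defined as at 10 FPKM or more in all libraries of 10 and 22 June and 3 log2 units or more lower on 6 July than on 10 June in both states. These later-falling contigs were more abundant on 10 June, with medians of 129.7 FPKM in the pollinated pool and 133.4 FPKM in the unpollinated pool. Their median was 78.3 FPKM in the pollinated pool and 45.2 FPKM in the unpollinated pool on 22 June, and 0.602 FPKM in the pollinated pool and 3.23 FPKM in the unpollinated pool on 30 June. In both groups of contigs, then, the pollinated library had the higher median on 22 June, while on 30 June the later-falling contigs had the higher median in the unpollinated library. Whether the 2 groups of contigs differ in this was not tested.

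The rule asked of a single pollination state gave lists of very unequal length. In pollinated megagametophytes alone 91 contigs met it and in unpollinated ones alone 387, so the 47 shared contigs were 51.6% of the first list and 12.1% of the second. Of the 44 contigs that met it only in pollinated megagametophytes, 38 had been under 10 FPKM in the unpollinated library already on 10 June. Of the 340 that met it only in unpollinated megagametophytes, 292 were at 10 FPKM or more in the pollinated library of 10 June.

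These 340 contigs had a median of 27.1 FPKM in the pollinated pool and 31.2 FPKM in the unpollinated pool on 10 June. On 22 June the medians were 6.29 FPKM in the pollinated pool and 0.919 FPKM in the unpollinated pool, and on 30 June 0.0570 FPKM with pollen and 0.0497 FPKM without. By 30 June 277 of the 340 contigs (81.5%) were under 10 FPKM and at least 3 log2 units below 10 June in the pollinated library as well.

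The cone tissues, which the rule did not use, were nearly empty of these contigs on their single sampling date. That date lay before 10 June and had no megagametophyte library, so tissue and date cannot be told apart. At 1 FPKM or more, 3 of the 47 contigs (6.38%) were present in scales and 9 (19.1%) in bracts. Of all contigs 51.1% were present in scales and 72.2% in bracts. The deposited contigs are labelled as filtered at more than 1 FPKM, so some may be listed through a cone library alone. Of the later-falling contigs 23.6% were present in scales and 37.0% in bracts, and of the 7843 other contigs of 10 June 83.0% and 84.8%. Both libraries were under 1 FPKM for 38 contigs (80.9%), against 21.8% of all contigs, 13.1% of the 7843 other contigs at 10 FPKM or more on 10 June and 60.1% of the 589 later-falling contigs. The median level of the 47 contigs was 0.0425 FPKM in cone scales and 0.257 FPKM in cone bracts, against 0.338 FPKM in scales and 0.741 FPKM in bracts for the later-falling contigs, and 15.9 FPKM in scales and 13.7 FPKM in bracts for the other contigs of 10 June. The later-falling contigs are among those 7843. No test was made across contigs, which are not replicates.

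The presence of members in bracts was mostly at low level. At 2 FPKM the count was 3 contigs (6.38%) in scales and 4 (8.51%) in bracts, against 37.6% and 45.4% of all contigs. At 10 FPKM it was 1 in each (2.13%), the same contig, against 15.9% of all contigs in scales and 15.9% in bracts. Of the 9 contigs present in bracts, 6 were under 1 FPKM in scales, and none was present in scales alone. Presence in bracts alone thus held for 12.8% of the members, against 27.1% of all contigs and 3.84% of the 7843 other contigs of 10 June. It held for 16.3% of the later-falling contigs, so it was not particular to the members. Presence in scales alone held for 3279 of all 54889 contigs. With all libraries brought to a common distribution, 4 members in place of 9 reached 1 FPKM in bracts. The bract library also had the most contigs at 1 FPKM or more of all 10 libraries, and the part of this in the members' count was not tested.

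GAZW02062123 was the exception among the 47 contigs. It stood at 47.5, 4.46, 0.0210 and 1.07 FPKM on the 4 dates in the pollinated pools and at 78.3, 0.189, 0.0210 and 1.2 FPKM in the unpollinated pools, while scales had 23.1 FPKM and bracts 88.3 FPKM. Bracts were thus higher than any megagametophyte library, and the contig was the only member with more in a cone library than in the lower of its 10 June libraries. It was also the only member 2-fold or more apart between the cone tissues at 10 FPKM or more, with scales minus bracts at -1.89 log2 units. Over all contigs 1.82% were higher in scales and 2.31% in bracts by that measure.

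GAZW02075024 had the next highest level shared by the cone tissues. Its levels were 28.0, 1.73, 0.0353 and 0.117 FPKM on the 4 dates in the pollinated pools, 28.2, 0.223, 0.133 and 0.0353 FPKM in the unpollinated pools, 2.36 FPKM in cone scales and 3.08 FPKM in cone bracts. Its cone levels were far under those of 10 June. The lower 10 June value of a member exceeded its higher cone value by a median of 3.73 log2 units, and by 3 or more in 39 of 47 contigs.

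**Figure D4:**
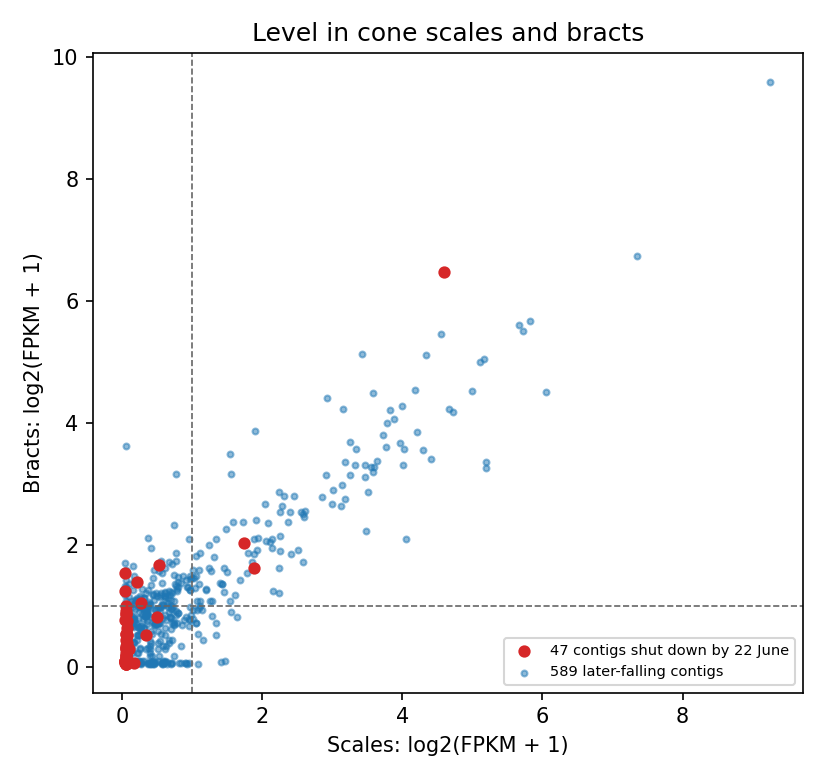
Level in cone scales (horizontal axis) against cone bracts (vertical axis) as log2(FPKM + 1), with the 47 contigs shut down by 22 June in red and 589 later-falling contigs in blue; dashed lines mark 1 FPKM. Of the red points 38 lie under both lines, and a single one, GAZW02062123, lies far out, at 23.1 FPKM in cone scales and 88.3 FPKM in cone bracts.

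The accession numbers of the contigs were used as a further feature that the rule had not used. Contigs with neighbouring numbers can be variants of 1 gene, but no source used here says which are. Among the 47 contigs, 10 fell in 4 groups whose numbers lie within 5 of each other, and 37 had no other member that near. A contig of the same set lay within 5 numbers for 21.3% of the members, 44.8% of the 589 later-falling contigs and 71.1% of the 7843 other contigs of 10 June, sets of very unequal size. Within 5 numbers of a member, 36 of the 47 contigs had a contig at 10 FPKM or more in both 10 June libraries that did not meet the rule, 71 such contigs in all. The share of contigs with a neighbour at 10 FPKM or more on 10 June was 76.6% for the members, 81.7% for the later-falling contigs and 71.3% for the other contigs of 10 June, so this is nothing particular to the members.

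Of these 71 neighbours, 40 (56.3%) were still at 10 FPKM or more in both 22 June libraries, against 79.1% of the 7843 other contigs of 10 June. By 6 July 31 (43.7%) were under 1 FPKM in both libraries, against 11.3%. For 21 of the 47 members a neighbour was thus still at 10 FPKM or more on 22 June in both states. Whether the authors' counting divided reads between such contigs was not tested.

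GAZW02025561, the contig with the widest fall, lay between 2 such neighbours. The contig numbered 1 lower stood at 194.4, 134.3, 0.548 and 0.0497 FPKM on the 4 dates in the pollinated pools and at 215.8, 116.0, 5.28 and 0.310 FPKM in the unpollinated pools. The contig numbered 1 higher stood at 368.6, 376.4, 0.705 and 0.385 FPKM in the pollinated pools and at 406.3, 260.4, 9.93 and 0.444 FPKM in the unpollinated pools. Both were abundant on 22 June, when the member was at 0.0353 FPKM in either state, and were lost by 6 July. These neighbours were picked after their values were seen.

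Several contigs around GAZW02082582, picked likewise, also fell after 10 June, though most not to the same level by 22 June. The contig 3 lower did not share this course. It stayed low, at 2.14 and 1.60 FPKM on 10 and 22 June in the pollinated pools and at 1.68 and 1.41 FPKM in the unpollinated pools. GAZW02082582 stood at 11.7, 0.0425, 0.0353 and 0.0353 FPKM on the 4 dates in the pollinated pools and at 16.5, 0.0425, 0.0353 and 0.0425 FPKM in the unpollinated pools. Its neighbours 1 lower and 4 higher are members too. The contig 1 higher came near its 22 June level. Between 10 and 22 June that contig went from 11.2 to 0.102 FPKM with pollen and from 8.13 to 0.0425 FPKM without. It did not meet the rule because it was under 10 FPKM in the unpollinated library of 10 June. The contigs 2 lower, 2 higher and 3 higher stood at 447.8, 954.4 and 312.0 FPKM on 10 June in the pollinated pool and at 693.6, 896.6 and 351.1 FPKM in the unpollinated pool. On 22 June they stood at 78.9, 92.7 and 31.2 FPKM in the pollinated pool and at 5.36, 9.85 and 2.05 FPKM in the unpollinated pool. All 3 were thus still above 10 FPKM in the pollinated library, and the contig 2 lower had a fall of only 2.49 log2 units there, short of the 3 that the rule asks for. These 3 contigs and the members beside them were under 1 FPKM on 6 July in both states.

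**Figure D5:**
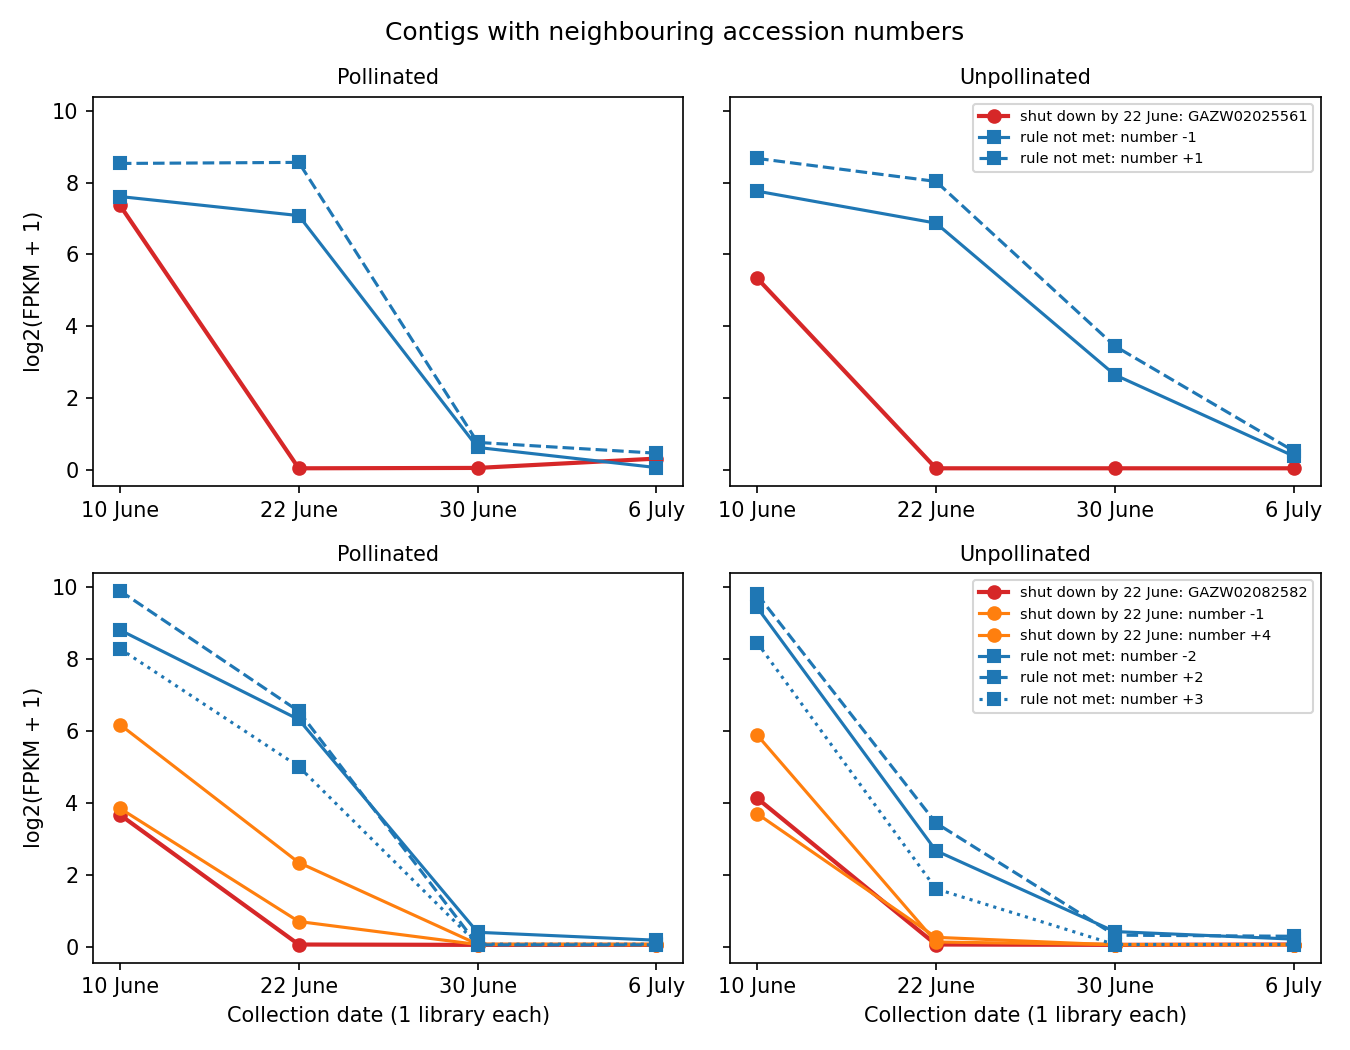
Courses of contigs with neighbouring accession numbers over the 4 dates, as log2(FPKM + 1), 1 library per point, in pollinated (left) and unpollinated (right) megagametophytes; members are red or orange circles and contigs that did not meet the rule blue squares. In the upper row both neighbours of GAZW02025561 stay above 100 FPKM on 22 June. In the lower row the contigs shown around GAZW02082582 fall together, and the contig 1 higher is not drawn.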

How the data were processed

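PolyA RNA of 10 libraries was sequenced as non-stranded read pairs, per the labels' protocols. RSEM 1.2.12, Bowtie 1.0.1, Trim Galore 0.2, FastQC 0.10, R 3.1.0 and bedtools 2.17 appear in the submitters' processing notes, with no role given. The deposited table holds 54889 contigs on a log scale that was taken as log2(FPKM + 1). The logarithm's base and offset, and any normalization across libraries, are not given in these sources. Every FPKM level rests on this reading, under which values sum to 466481 to 561810 FPKM per library. Depth is unknown. Related contigs may share reads.

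Libraries were grouped by pollination state, date and tissue, 1 per group. The rule was applied in Python 3.11.15 with numpy 2.4.6 and pandas 2.3.3, and plots were made with matplotlib 3.10.9. Pollination was tested with limma 3.58.1 in R 4.3.3 (lmFit, then eBayes with trend) on the log2(FPKM + 1) values, the pseudocount being 1 FPKM. Contigs averaging at least 1 FPKM in the 8 megagametophyte libraries were kept, and p-values were Benjamini-Hochberg adjusted over all of them. The script was tested on simulated data. Fold differences on this scale understate changes of low contigs. P-values measure the spread of the pollination difference between dates and not variation between trees.

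The members, the comparison groups and the rules were chosen with earlier results of these data known. Contigs were named by rank: the 2 highest on 10 June, the 2 with the widest fall, the 2 with the largest rise after 22 June, the 2 highest in both cone tissues, the widest differences between cone tissues, and the smallest p in each direction, whose p is not reported because the rule used the same libraries. Further contigs are described only by their offset from a member, and GAZW02082582 was added after the values were seen. Alternatives covered the limits of the rule, rescalings, pseudocount, filter, date block and omission of libraries.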

Additional observations from a re-analysis of the deposited data

How the results depend on the processing

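The number of contigs that met the rule followed its limits: it was 185 at a fall of 2 log2 units, 5 at 4 log2 units, 25 with a level limit of 20 FPKM, 29 with 22 June under 1 FPKM, 91 with the pollinated and 387 with the unpollinated libraries alone. Under quantile normalization 33 contigs met it and under upper quartile rescaling 44, all of them among the 47. Members present in scales numbered 1 at 5 FPKM and 1 at 10 FPKM, and in bracts 16 at 0.5 FPKM, 4 at 2 FPKM, 1 at 5 FPKM, 1 at 10 FPKM and 4 under quantile normalization. The count under the limit in both cone libraries was 31 at 0.5 FPKM and 46 at 5 FPKM. Members higher in bracts than in scales numbered 0 at 4-fold, where 0.851% of all contigs were. They numbered 5 (10.6%) at a minimum of 1 FPKM, where 16.8% of all contigs were. Under either setting 0 members were higher in scales, against 0.576% and 6.07% of all contigs. At 4-fold, 1 member (2.13%) was higher in the pollinated and 0 in the unpollinated library of 10 June. The shares were 0.299% and 0.120% of all contigs, and 0.191% and 0.0128% of the 7843 other contigs of 10 June. At a minimum of 1 FPKM, 13 members (27.7%) were higher in the pollinated library of 22 June, against 3.49% of all and 20.4% of the later-falling contigs. In the unpollinated library of that date 1 member was higher, and in the pollinated library of 30 June 1 was.

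The limma fit of pollination was repeated leaving out each library in turn, and its outcomes for the members are not given. Those outcomes show nothing about stability, because the rule used the same libraries. The fit is paired by date. The labels give no replicate numbers, so no other pairing was run. Of 96 alternative values, 76 stayed on the same side or within 1.5 times the value given, and 20 moved. The limma outcomes of the members are among the 96, as are counts that the rule itself fixes. The 76 are therefore no measure of stability.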
